A study of Harpegnathos saltator with 12 samples.

Results

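The divergent tuning ionotropic receptor (Ir) genes of the ant Harpegnathos saltator were followed in adult antennae that carried 2, 1 or 0 working copies of orco. The group was taken by name: every gene called HsIr with a number of 300 or above, leaving out HsIr308 and HsIr309, whose fall in the mutant was already known when the rule was written. Of 10 genes with such names, 6 averaged 10 or more raw counts across the 12 libraries, and these were HsIr310, HsIr312, HsIr314, HsIr316, HsIr318 and HsIr319. They were 6 of the 23 Ir genes and of the 14407 genes in the count tables. No sequence, gene length or phylogeny of the HsIr genes was at hand, so the class given by the names was not checked against sequence, and no gene was ranked above another by its level.

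Antennal poly(A) RNA was sequenced from 2 wild-type samples, 3 samples heterozygous for an orco mutation and 7 homozygous mutant samples. The wild types and heterozygotes together are called the controls (n = 5), so the controls include ants with 1 mutant allele. The labels give no age of the ants and no number of ants per library, and the study's methods tie neither to these libraries. Nothing says that the libraries came from separate colonies, so p-values measure the spread between these samples only. Sequencing was done in 2 batches: 1 library of each genotype (replicate 2 of the wild types and replicate 1 of both mutant genotypes) formed batch 1, and the 9 remaining libraries formed batch 2. Genes were assigned between 4.11 M and 23.2 M reads per library, and the 3 shallowest libraries were those of batch 1. Levels are CPM, counts scaled to a common library size, after TMM scaling, which adjusts totals for composition, and 3 counts were worth between 0.143 and 0.653 CPM. The mutated gene itself, HsOrco, stood at 13.6 to 157 CPM in the homozygotes and at 1670 to 2769 CPM in the controls, so the homozygotes and the controls matched their labels. The wild types (2278 to 2769 CPM) and heterozygotes (1670 to 2553 CPM) overlapped, and this gene does not check those labels against each other.

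Ionotropic receptors are ligand-gated channels related to the ionotropic glutamate receptors of synapses. A tuning subunit, which sets what the receptor responds to, assembles with co-receptors such as Ir25a, Ir8a, Ir76b or Ir93a, and this route does not use Orco, the partner of the odorant receptors (Ors). In Drosophila, conserved antennal Irs serve smell, humidity and temperature sensing, while the divergent Irs, which differ widely between insect lineages, are known mainly from taste organs. No ligand is known here for any of the 6 ant genes, and background on single members is therefore not given.

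Among the 6 genes, 3 were called, and all in the same direction: HsIr312, HsIr318 and HsIr319 were higher in homozygotes than in controls, and the other 3 were not called. The fitted change was above 0 for all 6, as for 5057 of the 10740 genes tested, but that of HsIr314 was close to 0 and took the other sign in 5 of 21 other settings. As fitted with the batch term, the rises were 2.69-fold for HsIr312, 1.75-fold for HsIr318 and 1.87-fold for HsIr319. Among all genes tested, 18.8% were called higher and 25% lower in the same comparison. The median log2 fold change was 0.85 over the 6 genes and -0.040 over all genes tested. HsIr308 (-1.55) and HsIr309 (-1.15), left out of the group for their known fall, were called lower in this comparison. The single direction and the median of the 6 genes therefore depend partly on the rule that chose them. A call means an adjusted p under 0.05 in edgeR's quasi-likelihood test, with batch as a term and Benjamini-Hochberg adjustment over all genes tested.

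**Figure D1:**
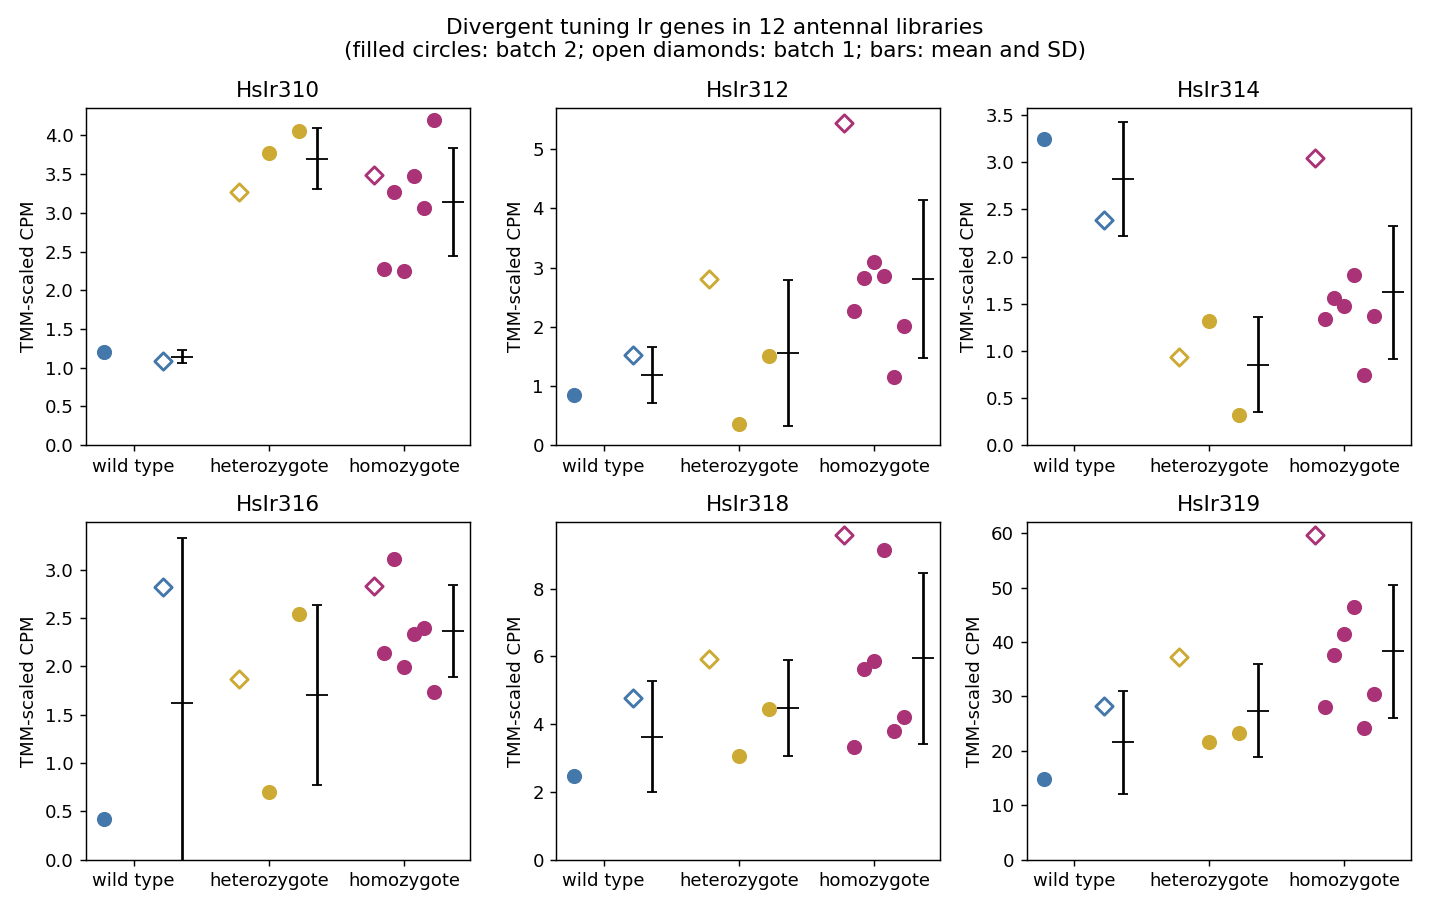
TMM-scaled CPM of the 6 divergent tuning Ir genes (vertical axes, each from 0) in wild-type, heterozygous and homozygous libraries; each point is a library, open diamonds are batch 1, and bars are the mean and SD (n = 2, 3 and 7). HsIr319 ran from 24.3 to 59.7 CPM in homozygotes and from 14.9 to 37.2 CPM in controls, and the lower end of the wild-type SD of HsIr316 falls below 0 and is not drawn.

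HsIr319 had the most reads of the 6, with 130 to 978 counts in a library. Wild-type replicate 1 had 14.9 CPM and replicate 2 had 28.3 CPM, and the heterozygotes in replicate order had 37.2, 21.7 and 23.3 CPM. In the homozygotes its lowest, median and highest levels were 24.3, 37.5 and 59.7 CPM. Of the 7 homozygotes, 4 lay above every control and 6 above the control mean, so the groups overlapped. Means were 38.3 ± 12.2 CPM (SD, n = 7) in homozygotes and 25.1 ± 8.31 CPM (SD, n = 5) in controls. The log2 fold change was 0.90 (SE 0.17, edgeR adjusted p = 0.00162), and the call held in 20 of 21 other settings, the exception being a fit without the batch term (log2 fold change 0.66, adjusted p = 0.0786).

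Within each batch the homozygotes were above every control for HsIr319. In batch 2, the 3 controls lay between 14.9 and 23.3 CPM and the 6 homozygotes between 24.3 and 46.5 CPM. In batch 1, the controls stood at 28.3 and 37.2 CPM and the homozygote at 59.7 CPM. HsIr319 was the only one of the 6 genes separated in this way in both batches, an arrangement found in 6.86% of all genes tested. Over the pooled libraries none of the 6 genes separated homozygotes from controls, against 12.5% of all genes tested.

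HsIr318 followed HsIr319 closely. Its levels were 2.47 and 4.78 CPM in the wild types, and 5.92, 3.07 and 4.45 CPM in the heterozygotes. In the homozygotes the lowest, median and highest levels were 3.34, 5.64 and 9.58 CPM. Only homozygote replicates 1 and 5 lay above every control. Homozygotes averaged 5.94 ± 2.51 CPM (SD, n = 7) and controls averaged 4.14 ± 1.38 CPM (SD, n = 5). The log2 fold change of 0.81 (SE 0.28, adjusted p = 0.0374) passed the test by a small margin. It did not pass in 10 of 21 other settings, among them batch 2 alone (0.81, adjusted p = 0.0847) and fits that left out wild-type replicate 1 (0.74, adjusted p = 0.178), heterozygote replicate 1 or 2, or homozygote replicate 1, 3 or 4.

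The counts of HsIr319 and HsIr318 kept a narrow ratio in all 12 libraries. Of the 15 pairs of members, this one had the highest Pearson's r of log2 CPM over the 12 libraries (0.94). HsIr319 had 5.91 and 6.03 times the counts of HsIr318 in the wild types, 5.23 to 7.06 times in the heterozygotes and 5.09 to 8.40 times in the homozygotes. These are ratios of counts, not of transcript levels, because the lengths of the genes are not known here. No reads were left out of HsIr318 as shared with another gene, and 6.10% were left out of HsIr319.

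HsIr312 rose by the largest fold of the 6 from few reads. The wild types held 12 and 7 counts, the heterozygotes 18, 4 and 19 counts, and the homozygotes 14 to 60 counts. In CPM these were 0.85 and 1.52 in the wild types and 2.80, 0.35 and 1.51 in the heterozygotes, with a lowest, median and highest level of 1.16, 2.82 and 5.44 in the homozygotes. Of the 7 homozygotes, 6 were above the control mean and 4 above every control. The log2 fold change was 1.42 (SE 0.37, adjusted p = 0.0103). Controls averaged 1.41 ± 0.92 CPM (SD, n = 5), and homozygotes averaged 2.81 ± 1.33 CPM (SD, n = 7). The call held in every fit that left out 1 library. It was lost without the batch term (1.08, adjusted p = 0.120) and with a block for the replicate number (1.45, adjusted p = 0.0605).

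HsIr312, HsIr318 and HsIr319 were higher in batch 1 than in batch 2 within each genotype. For each of the 3 genes, the batch 1 library was the highest of its genotype in wild types, heterozygotes and homozygotes alike. The share of all genes tested with this arrangement was not counted. The fitted change from batch 1 to batch 2 was -1.24 for HsIr312 (SE 0.40, adjusted p = 0.0324) and -0.80 for HsIr319 (SE 0.18, adjusted p = 0.00788), both called. It was -0.80 for HsIr318 (SE 0.31, adjusted p = 0.0616), not called. Of all genes tested, 37.4% were called between the batches in either direction. Batch 1 was 1 of 2 wild types and 1 of 3 heterozygotes but 1 of 7 homozygotes. Without the batch term edgeR called none of the 6 genes against the controls (3 had an unadjusted p under 0.05). The share of all genes called without the batch term was not counted.

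HsIr316 was not called, and its levels varied more among controls than among homozygotes. It stood at 0.42 and 2.83 CPM in the wild types, at 1.87, 0.70 and 2.54 CPM in the heterozygotes, and at 1.74 to 3.11 CPM with a median of 2.33 CPM in the homozygotes. All 7 homozygotes were above the control mean, yet only 2 were above every control. The homozygotes varied by 20.2% (SD over mean), against 64.3% in the controls. The log2 fold change was 0.90 (SE 0.43, adjusted p = 0.109), and it was called in batch 2 alone (1.45, adjusted p = 0.0212), without wild-type replicate 2 (1.46, adjusted p = 0.0115) or without heterozygote replicate 3 (1.45, adjusted p = 0.0165). Its difference from wild type was 1.20 (adjusted p = 0.137) and took the other sign without wild-type replicate 1 (-0.042).

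HsIr314 differed from the others in its order of genotypes. Its levels were 3.25 and 2.39 CPM in the wild types and 0.93, 1.31 and 0.32 CPM in the heterozygotes. In homozygotes it had a lowest, median and highest level of 0.75, 1.48 and 3.05 CPM. The homozygote median lay between the other genotypes, and the homozygote range overlapped both of them. The wild types and heterozygotes did not overlap, as in 25.7% of all genes tested. The log2 fold change of heterozygote against wild type was -1.73 (SE 0.55, adjusted p = 0.0508), just outside the threshold, and passed it in 7 of 22 other settings. Against the controls as a whole the change was 0.08 (SE 0.36, adjusted p = 0.874), and against wild type it was -0.79 (SE 0.45, adjusted p = 0.174).

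The ratio of HsIr312 to HsIr314 was narrow in the homozygotes, where HsIr312 had between 1.47 and 2.09 times the counts of HsIr314. Of the 15 pairs of members, this one had the highest Pearson's r of log2 CPM among the 7 homozygotes (0.97). Over all 12 libraries its r was 0.17. How often other pairs of genes keep so narrow a ratio was not counted. In the controls the ratio of HsIr312 to HsIr314 was spread more widely, 0.26 and 0.64 in the wild types and 0.27 to 4.75 in the heterozygotes. Of the 10 control counts behind it, 1 of each gene was as low as 4. The pair did not stand alone: homozygote replicate 1 had the highest level of all 7 homozygotes for HsIr312, HsIr314, HsIr318 and HsIr319.

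**Figure D2:**
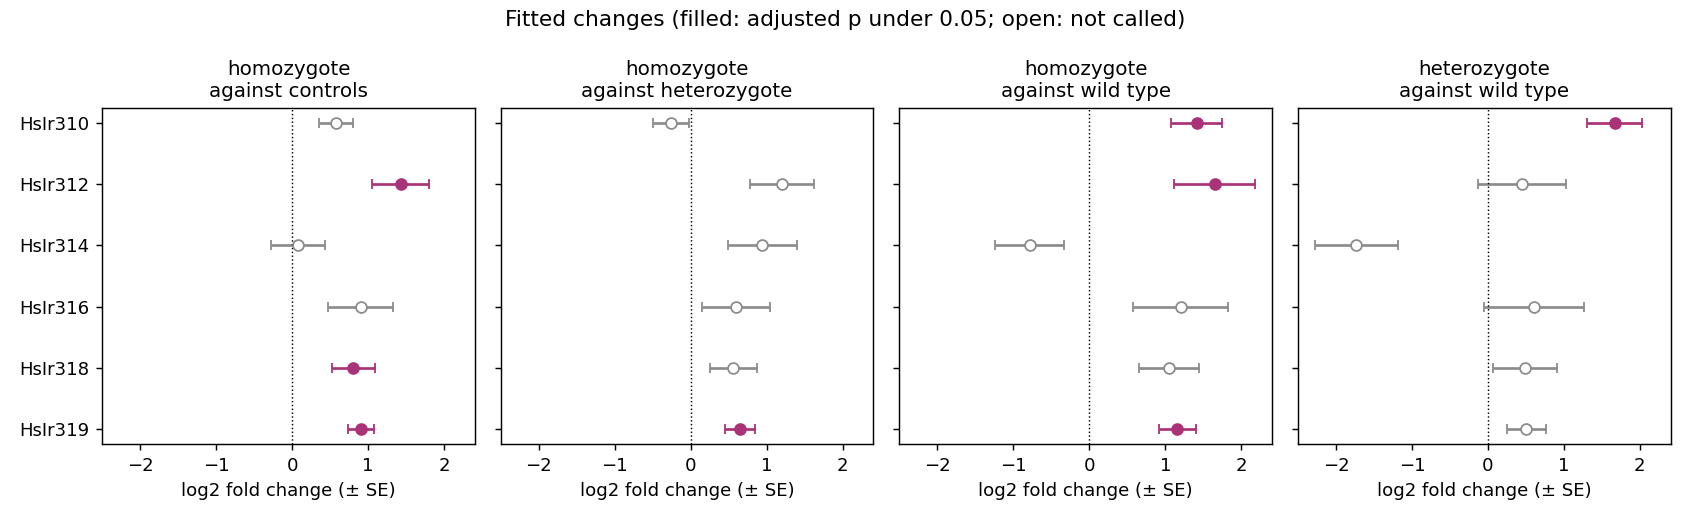
Fitted log2 fold changes with SE (horizontal axes) of the 6 divergent tuning Ir genes in 4 comparisons between genotypes; filled points passed an adjusted p of 0.05 over all genes tested. HsIr319 was called in all 3 comparisons with homozygotes, and HsIr310 in both comparisons with wild type only. The calls of HsIr310 depended on how reads were counted.

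Set against each control genotype alone, the homozygotes again had calls in the upward direction only among the 6 genes. HsIr308 and HsIr309, kept out of the group by the rule, were called lower against either control genotype. Against heterozygotes, HsIr319 rose by 0.65 on the log2 scale (SE 0.19, adjusted p = 0.0329), and the other 5 genes were not called. Across all genes tested, 6.82% were called higher and 16.2% lower in that comparison. The call of HsIr319 was lost in 10 of 22 other settings, among them the fits without any 1 of the 3 heterozygotes or without homozygote replicate 1, 3 or 4 (adjusted p between 0.055 and 0.122).

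Against wild type, HsIr310, HsIr312 and HsIr319 were called higher. The HsIr310 call depended on how reads were counted, as described below. HsIr319 rose by 1.16 (SE 0.24, adjusted p = 0.00296), HsIr312 by 1.65 (SE 0.53, adjusted p = 0.0264) and HsIr310 by 1.41 (SE 0.34, adjusted p = 0.00611). HsIr318 was at 1.05 (SE 0.40, adjusted p = 0.0512), not called. Of all genes tested, 19.1% were called higher and 25.8% lower. Without wild-type replicate 1, which leaves a single wild-type library from batch 1, edgeR called none of the 6 (3 had an unadjusted p under 0.05). Without wild-type replicate 2 the call of HsIr312 was lost (1.46, adjusted p = 0.0977). The share of all genes called in the fits without 1 library was not counted. These comparisons with each control genotype share libraries with the comparison against all controls.

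HsIr310 had its own order of genotypes in the deposited count. It stood at 1.20 and 1.09 CPM in the wild types, at 3.27, 3.77 and 4.05 CPM in the heterozygotes, and at 2.25 to 4.20 CPM with a median of 3.26 CPM in the homozygotes. The wild types lay below every other library. Homozygotes and wild types did not overlap, in either direction, in 32.4% of all genes tested, and heterozygotes and wild types in 25.7%. The share with the wild types below both other genotypes was not counted. The heterozygotes exceeded the wild types by 1.67 on the log2 scale (SE 0.36, adjusted p = 0.0106), the only one of the 6 genes called in that comparison, in which 9.71% of all genes tested were called higher and 8.14% lower. That call was lost without wild-type replicate 1 (1.75, adjusted p = 0.110) and in a fit of wild types and heterozygotes alone (1.59, adjusted p = 0.131). Homozygotes and heterozygotes differed by -0.26 (SE 0.24, adjusted p = 0.462), and the change from the controls was 0.58 (SE 0.23, adjusted p = 0.0579).

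In the deposited count, the steps from wild type to heterozygote and from heterozygote to homozygote were called unequal for HsIr310. The call held in 16 of 21 other settings and was lost under the other way of counting described below. The second step minus the first was -1.93 on the log2 scale (SE 0.50, adjusted p = 0.0221), and no other member was called, while 15.7% of all genes tested were called in either direction. HsIr314 had the opposite sign at 2.67 (SE 0.91, adjusted p = 0.0741).

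The wild-type level of HsIr310 depended on how reads over 2 genes were counted. The deposited tables hold an unstranded count, which drops a read that overlaps genes on both strands, and 2 strand columns, which keep it. For HsIr310 the strand columns together held 281 reads that the unstranded count left out, 40.0% of its reads over the 12 libraries. The same number of reads, library by library, was left out of 1 other gene, LOC105183294, which is how a pair of genes overlapping on opposite strands would be counted. The gene models were not at hand, so the overlap is read from the counts alone, and the reads cannot be given to either gene. In wild-type replicate 1, 58 of 75 reads were shared (77.3%, Wilson 95% interval 66.7 to 85.3%), and in wild-type replicate 2, 13 of 18 (72.2%, 49.1 to 87.5%). These were the highest shares of the 12 libraries.

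Among the heterozygotes the shared reads were 27 of 48 in replicate 1 (56.3%, Wilson 95% interval 42.3 to 69.3%), 6 of 49 in replicate 2 (12.2%, 5.73 to 24.2%) and 12 of 63 in replicate 3 (19.0%, 11.2 to 30.4%). The homozygotes ranged from 27.9 to 50.0%. LOC105183294 itself stood at 27.7 and 164 CPM in the wild types, at 150, 44.8 and 98.3 CPM in the heterozygotes, and at 106 to 207 CPM with a median of 122 CPM in the homozygotes. Wild-type replicate 1 joined the highest share to the lowest level of that gene, while heterozygote replicate 2 had the lowest share and the next lowest level, and homozygote replicate 1 had both the highest share and the highest level of its genotype.

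**Figure D3:**
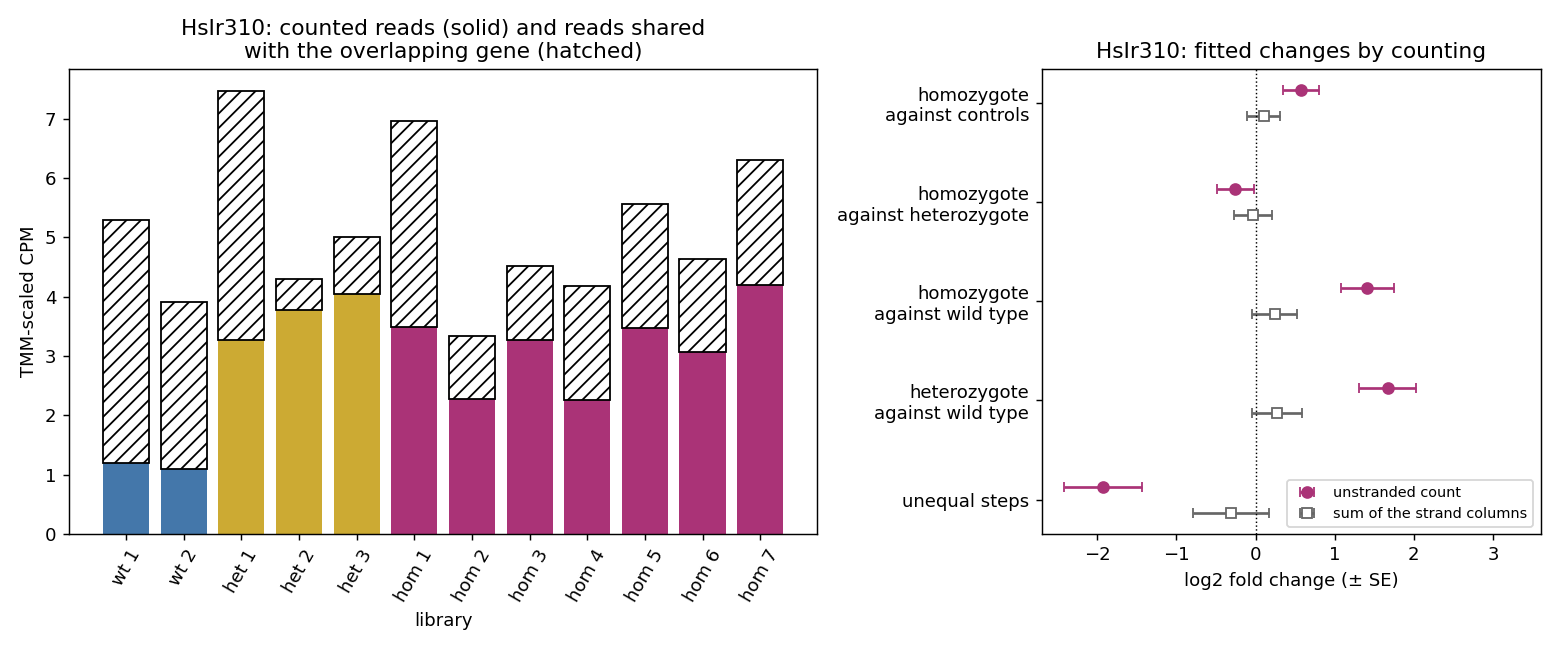
Left, TMM-scaled CPM of HsIr310 reads in each library, counted (solid) or shared with the overlapping gene and left out of the count (hatched); right, fitted log2 fold changes with SE from the unstranded count and from the sum of the strand columns. The solid bars are lowest in the 2 wild types, whose whole bars lie within the range of the other libraries.

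With the shared reads added, the difference between genotypes was small. HsIr310 then had 4.60 ± 0.98 CPM in wild types (SD, n = 2), 5.59 ± 1.67 CPM in heterozygotes (SD, n = 3) and 5.07 ± 1.27 CPM in homozygotes (SD, n = 7). The change of heterozygote against wild type was 0.28 (SE 0.32, adjusted p = 0.572), that of homozygote against wild type 0.24 (SE 0.28, adjusted p = 0.507), and the unequal steps were -0.31 (SE 0.48, adjusted p = 0.734). None of the HsIr310 calls was therefore kept under that counting. It was chosen after seeing the data, and it assigns all shared reads to HsIr310, as the unstranded count assigns none.

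The other members hardly depended on that choice. HsIr319 shared 0.94 to 8.10% of its reads in a library with LOC105183984, and its rise against controls was 0.97 (SE 0.17, adjusted p = 0.00112) with these reads added. HsIr314 shared 9 reads in all, with no single partner found, and HsIr312, HsIr316 and HsIr318 shared none. HsIr312, HsIr318 and HsIr319 were called against the controls under both ways of counting.

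The 4 genes of the same name pattern that missed the minimum were near the floor of 3 counts. HsIr313, the nearest to the minimum, had a mean raw count of 4.83, against 18.5 for HsIr314, the nearest above it. It had 1 to 3 counts in every control and 2 to 21 in the homozygotes. A fit with no minimum gave it a log2 fold change of 2.50 against controls (SE 0.63, adjusted p = 0.00931), a size that rests on those few control counts. HsIr307 had 0 to 7 counts in a library, HsIr311 0 to 4 and HsIr317 0 to 3, with means of 2.75, 2.00 and 1.00, and none of these 3 was called against the controls in that fit. None of the 72 member values in the 12 libraries was at or under the floor.

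The rest of the Ir family was set beside the divergent genes in the same comparison. Of the 5 genes taken here as co-receptors, 3 were called higher in homozygotes and none lower, with a median log2 fold change of 1.09. The study counts 4 co-receptor genes, without HsIr93a, so this count and this median depend on adding it. The called genes were HsIr25a.1 (1.61) and HsIr25a.2 (1.18), copies of the broad co-receptor Ir25a, and HsIr93a (1.09), which in Drosophila serves humidity and temperature sensing. HsIr8a, the co-receptor of acid-sensing Irs in Drosophila, was at 0.24 (adjusted p = 0.308), and HsIr76b, which in Drosophila acts in amine and taste sensing, at 0.30 (adjusted p = 0.110). Of the 6 conserved tuning genes, which carry the names HsIr68a, HsIr75f and HsIr75u, 4 were called higher and none lower, with a median of 0.73. HsIr308 (-1.55) and HsIr309 (-1.15), the numbered genes left out of the group, were both called lower. No test was made of a difference between these lists.

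**Figure D4:**
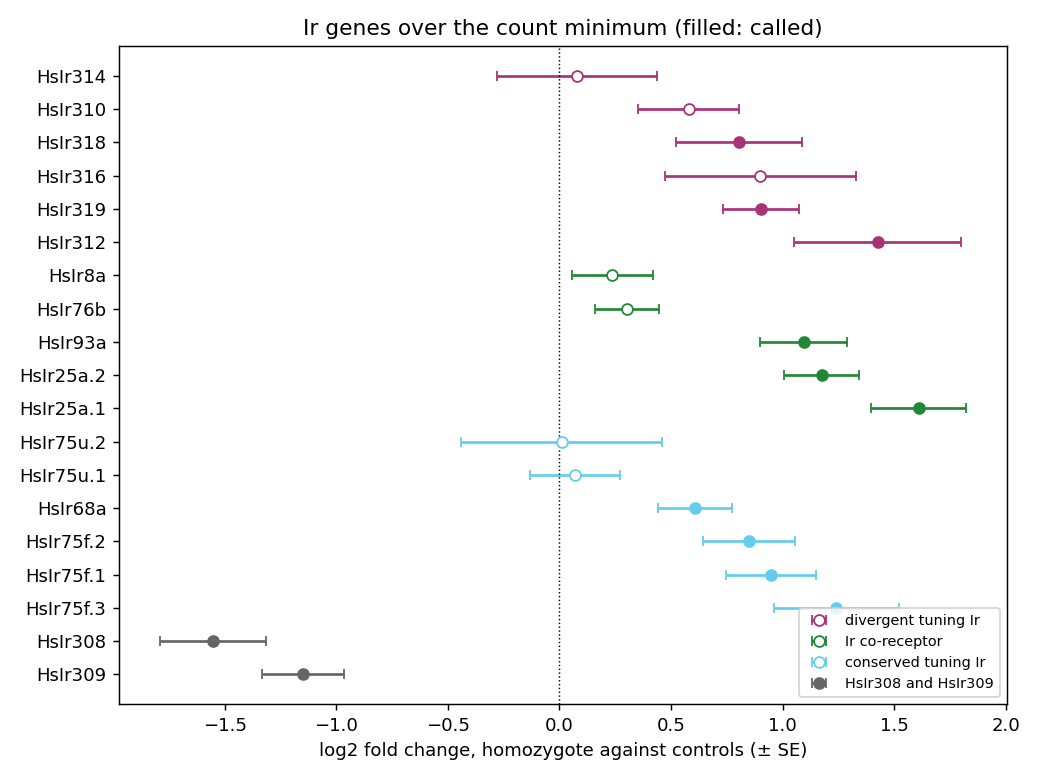
Fitted log2 fold changes with SE of homozygote against controls (horizontal axis) for the 19 Ir genes over the count minimum, coloured by class, filled where called. The 6 divergent tuning genes lie between 0.08 and 1.42, within the span from 0.01 to 1.61 that the co-receptor and conserved tuning genes cover.

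HsIr308 and HsIr309 shared the batch dependence of HsIr312 and HsIr319 but not the direction by genotype. From batch 1 to batch 2 they changed by -1.67 (adjusted p = 0.00180) and -1.49 (adjusted p = 0.00100). Among the co-receptors only HsIr25a.2 was called between batches (-0.68, adjusted p = 0.0136).

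The genes whose levels ran most like each member were listed over the 12 libraries, as Pearson's r of log2 CPM. All points share library depth, genotype and batch, so r describes likeness only. HsIr318 was second nearest to HsIr319 and HsIr319 second nearest to HsIr318, at r = 0.94. The nearest were LOC105186938 for HsIr318 (r = 0.95) and LOC105191703 for HsIr319 (r = 0.95).

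No other member had an Ir gene among its 2 nearest. In the unstranded count, which left out 40.0% of its reads, HsIr310 ran most like LOC105187125 and LOC105189612 (r = 0.96 and 0.95). Its likeness with the shared reads added was not computed. HsIr312 ran most like LOC112588964 and LOC112589522 (r = 0.94 and 0.94). HsIr316 ran most like LOC105192383 and LOC105188702 (r = 0.96 and 0.94), and HsIr314 most like LOC105191969 and LOC105190563 (r = 0.90 and 0.89).

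The makeup of the antennal RNA changed with genotype beside these results. In bulk antennae, a higher CPM of an Ir gene can come from more RNA per cell, from more cells, or from a smaller share of RNA from other cells, and these cannot be told apart. Of 14 marker genes, 4 were called higher and 5 lower in homozygotes. The 4 neuronal markers together (nSyb, fne, Syt1 and onecut) stood at 556 to 1263 CPM in homozygotes and at 1335 to 2214 CPM in controls. Of these, nSyb, Syt1 and onecut were called lower, and fne was not (-0.42, adjusted p = 0.0585), with 206 to 569 CPM in homozygotes and 314 to 537 CPM in controls. The 7 non-neuronal markers together stood at 8066 to 13243 CPM in homozygotes and at 4029 to 9048 CPM in controls, and none of these 11 genes was at 0 in any library. These 7 did not move as 1 group. Most of the sum came from Mhc and LOC105182650. The latter was at 3398 to 5356 CPM in homozygotes and at 2974 to 6949 CPM in controls. The study, by contrast, reports muscle cells reduced in the mutant in its single-nucleus data. The muscle myosin gene Mhc, at 3111 to 8559 CPM in homozygotes and 281 to 4819 CPM in controls, was called higher with repo and sv, LOC105190591 was called lower (-0.83), and grh, LOC105182650 and LOC105188530 were not called. Rh50, an ammonium transporter gene, was at 77.2 to 109 CPM in homozygotes and at 21.1 to 63.1 CPM in controls, a log2 fold change of 1.47. The marker of mechanosensory neurons, nompC, was not called (0.14, edgeR adjusted p = 0.484). It was at 13.1 to 20.6 CPM in homozygotes and at 7.63 to 24.8 CPM in controls. The part of this change in makeup in the rise of the Ir genes was not tested.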

How the data were processed

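RNA was extracted from frozen antennae with TRIzol, and libraries were made with the NEBNext Ultra II kit. The authors aligned the reads with STAR 2.6.1d, with an intron limit of 7000 bases, and deposited raw read counts per gene from its gene counting option against their HSAL60 annotation. Each table gives an unstranded count and 2 strand columns. The unstranded count was used, since neither strand dominated (the first strand column held 50.0 to 50.6%). The sum of the strand columns minus the unstranded count gave the reads shared by genes on opposite strands. Per the labels DESeq2 1.34.0 was also used, for normalization, and that table was not used here. The 4 lines that name no gene, 20.7 to 29.7% of counted reads, stayed out of library sizes and tests.

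Of 14407 genes, the 10740 that averaged 10 or more raw counts entered edgeR's quasi-likelihood test (R 4.3.3 with limma 3.58.1 and edgeR 4.0.16). TMM scaling was used, and 1 model was fitted of genotype and sequencing batch over all 12 libraries. P-values were adjusted by Benjamini-Hochberg over all genes tested and called under 0.05. Homozygotes were compared with the average of both control coefficients, with the batch term in the fit. Fitted changes can therefore differ from ratios of group means. Against controls, a fit without the batch term gave log2 fold changes of 1.08, 0.58 and 0.66 for HsIr312, HsIr318 and HsIr319. With the batch term they were 1.42, 0.81 and 0.90. SEs are approximate, being the log2 fold change over the square root of F. Wilson 95% intervals and the floor of 3 counts cover counting error only, as the reads carry no molecular identifiers. The test was first tried on simulated counts that held no batch effect, so that trial does not check the batch adjustment.

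The text names every member, the genes of the name pattern under the minimum, the other Ir genes, and for each member with a mean of at least 1 CPM the 2 tested genes with the highest Pearson's r of log2 CPM (prior count 2). Members, lists and markers were chosen with earlier results of these data known. Alternatives were 2 other scalings, DESeq2 1.42.0, no minimum, filterByExpr, no batch term, batch 2 alone, a replicate block, fewer genotypes in the fit, each library left out, and the sum of the strand columns. Libraries of a genotype differed by a chi-square of 20.3 to 401 per gene, so none was taken as a duplicate. Tables and figures used Python 3.11.15, numpy 2.4.6, scipy 1.17.1 and matplotlib 3.10.9. RefSeq's gene table gave no entry under the HsIr names, so no coordinates, lengths or sequences are given.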

Additional observations from a re-analysis of the deposited data

Results flagged for a closer look

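The change of HsIr310 from heterozygote to homozygote differed from its change from wild type to heterozygote, by -1.93 on the log2 scale (SE 0.50, edgeR adjusted p = 0.0221). The call was lost without wild-type replicate 1 (adjusted p = 0.0686), without heterozygote replicate 2 (-1.92, adjusted p = 0.0715) or without heterozygote replicate 3 (-1.78, adjusted p = 0.0871), and with the reads shared with LOC105183294 added (-0.31, adjusted p = 0.734). No homozygote of any member stood far enough from the other 6 to pass Dixon's 95% limit of 0.568. The nearest was HsIr312 in homozygote replicate 1, whose gap to the next library was 0.551 of the range.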

How the results depend on the processing

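Of the 6 divergent tuning Ir genes, 3 were called against controls, 1 against heterozygotes, 3 against wild type, 1 in heterozygote against wild type, 1 in unequal steps and 2 between batches. In that order, the counts without the batch term were 0, 0 and 1 for the first 3, and with the replicate block they were 1, 0, 1, 0 and 0 for the first 5. Library totals gave 0 against heterozygotes, 2 for heterozygote against wild type and 1 between batches. DESeq2's Wald test gave 2 against heterozygotes, 2 for heterozygote against wild type and 2 for unequal steps. Batch 2 alone gave 0 against heterozygotes and 2 for heterozygote against wild type. A fit of wild types and heterozygotes alone gave 0 for their comparison and 0 between batches, and one of heterozygotes and homozygotes alone gave 1 between batches. The sum of the strand columns gave 0 for heterozygote against wild type and 0 for unequal steps. Leaving out 1 library gave 2 to 4 calls against controls, 0 to 2 against heterozygotes, 0 to 4 against wild type, 0 to 2 for heterozygote against wild type, 0 to 2 for unequal steps and 1 to 3 between batches. Each 0 above had 1 to 3 members at an unadjusted p under 0.05 in the same edgeR test, except against heterozygotes without the batch term, where there were 0. Against controls the replicate block kept the call of HsIr319 and lost those of HsIr312 (1.45, adjusted p = 0.0605) and HsIr318 (0.55, adjusted p = 0.140). The share of all genes called was counted only in the main fit and under the 2 other scalings. In other settings, fewer calls among the 6 genes cannot be told from fewer calls over all genes. The causes were not tested.

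Single values took the other sign for HsIr314 against controls under library totals (-0.036), in batch 2 alone (-0.21) and over the fits without 1 library (-0.26 to 0.53), for HsIr314 against wild type (-1.17 to 0.069), and for HsIr316 against wild type (-0.042 to 2.41) and in heterozygote against wild type (-0.55 to 1.91) over the same fits. Library totals moved the median of all genes by -0.13 against controls, and 28.3% rather than 42.9% of called genes were then higher. Same-numbered libraries of different genotypes correlated between -0.56 and 0.53 in their deviations, over 0.1 in 2 of 7 pairs. Every pair with a wild type joined different batches. The same-batch pairs of heterozygote and homozygote gave 0.53, 0.012 and 0.080. With batches mixed in this way, these values cannot decide whether the replicate number pairs the samples, and the block was kept as an alternative. Precision is limited by 4 to 60 counts per library for HsIr312, HsIr314 and HsIr316.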
